A study of Mus musculus with 4 samples.

Results

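Unannotated nuclear-genome clusters are the Argonaute-bound RNA stretches that the deposited annotation placed on a nuclear chromosome but in no gene class. They were selected as all clusters whose annotation field read NoAnnotation and whose chromosome was not the mitochondrial one. The rule gave 342 of 2659 clusters in the embryonic stem cell (ESC) table and 158 of 889 in the myotube table, 500 of 3548 in all. The 11 ESC and 17 myotube clusters without annotation on the mitochondrial genome were left out. Both groups came from the cytoplasmic fraction of mouse cells, irradiated at 312 nm for 5 min, and each was 1 library. The ESCs expressed AGO2 with FLAG and HA tags, induced by doxycycline at 2.5 µg/ml for 15 h, and the tagged protein was captured with a FLAG antibody. The myotubes came from the C2C12 myoblast line after 2 days of differentiation, and endogenous Argonaute proteins were captured with a peptide that binds the whole family. Cell type, source of Argonaute and capture method therefore changed together and cannot be told apart, and no test between the libraries was made. The 10 ESC marker genes had clusters for 7 genes in ESCs and for 0 in myotubes, and the 10 skeletal myotube markers for 3 genes in ESCs and 7 in myotubes. Oct4 (Pou5f1) and the muscle creatine kinase Ckm were among the markers with no cluster in either table.

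Argonaute proteins hold a microRNA and use its seed to find partly complementary RNAs, mostly in the 3′ untranslated regions of mRNAs. In PAR-CLIP, a photoactivatable uridine analogue in the RNA crosslinks to the bound protein and leaves T-to-C conversions in the sequenced cDNA, and RNase T1, which cuts after G, trims the bound RNA. Argonaute libraries can also hold fragments of abundant noncoding RNAs such as tRNAs. A tRNA gene is transcribed by RNA polymerase III from 2 internal promoter boxes, the A box and the B box, and transcription ends at a run of T. The 3′ trailer is then cut off and the letters CCA are added to the mature tRNA. Many copies and relatives of tRNAs, ribosomal RNAs and small nuclear RNAs lie scattered through the mouse genome, among them tRNA-derived interspersed elements, so a short read can resemble several places.

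The sequences that carry most of the reads fell into a few kinds, shown here as the cluster tables give them, 5′ to 3′ on the cluster's strand, on mm10. The 4 clusters below had many reads and shared no run of 15 bases with another place in their table. Capitals in the last mark the match to the seed of the miR-27 family.
chr13:107122051-107122083 (+): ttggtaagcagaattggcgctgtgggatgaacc
chr1:100180352-100180396 (-): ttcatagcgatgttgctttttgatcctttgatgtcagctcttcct
chr3:16111087-16111120 (+): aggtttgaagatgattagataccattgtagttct
chr13:23539700-23539733 (+): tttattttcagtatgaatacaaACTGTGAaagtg

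The next clusters held a tRNA-like A box, given in capitals, and come from 5 chromosomes.
chr11:40585025-40585046 (+): gggggtaTAGCTCAGTTGGgag
chr19:60429944-60429972 (-): ggggattTAGCTTAGTTGGtagagtgctt
chr3:126635862-126635887 (-): gtgaaagTAGCTCAGTTGGtagagcc
chr3:128712958-128712986 (+): tgtggctgTAGCTCAGTTGGtagagttcc
chr17:72708621-72708642 (+): tTAGCTCAGTTGGttagagcac
chr2:99121085-99121109 (+): gggagTAGCTCAGTTGGtagagtgc

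A further family aligned to a consensus of 27 bases, given first, with the letters GGCTAAG in capitals. Some copies differ from the consensus within these letters. Below the consensus stand the 2 copies with the most reads and a copy on chromosome 4.
consensus: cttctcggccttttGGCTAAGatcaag
chr16:26831594-26831620 (-): cttctcggcctttcGGCTAAGatcaag
chr6:102697080-102697106 (+): cttctcggccctttGGCTAAGatcaag
chr4:94226046-94226072 (+): catctcggccttttGGCTAAGatcaag

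The last set shows 3′ ends. In the first 3, capitals mark the bases past the annotated end of the tRNA genes n-TMcat16, n-THgtg1 and n-TVcac4, and in the other 2 they mark a CCA end outside any tRNA gene.
chr15:57975973-57975998 (-): atcctcacacggggcaCAATACTTTT
chr3:96463944-96463979 (-): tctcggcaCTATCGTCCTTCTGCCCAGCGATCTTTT
chr13:23300179-23300214 (+): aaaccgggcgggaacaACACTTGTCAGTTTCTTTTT
chr4:133900529-133900548 (-): gattctgccctaggccaCCA
chr7:130827537-130827556 (+): gaatccactcctgtccaCCA

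As background, the chromosome 13 cluster at 107122051 and the chromosome 1 cluster resemble conserved stretches of the large ribosomal RNA. The chromosome 3 cluster at 16111087 resembles one of the small ribosomal RNA, and the consensus of the GGCTAAG family the start of the U2 small nuclear RNA. Sequences of these RNAs were not used here, so no identity to them was computed. Reads placed on a genomic copy that has T at a base where the RNA of origin has C show T-to-C mismatches there, which the tables cannot tell apart from crosslink conversions. How the authors placed reads that match several places is not given in the sources used here.

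Unannotated clusters made up 12.9% of the ESC table (95% interval 11.6 to 14.2) and 17.8% of the myotube table (15.3 to 20.4). Their share of cluster reads was 34938 of 214955 reads (16.3%) in ESCs and 42983 of 135023 reads (31.8%) in myotubes. Of the reads in nuclear-genome clusters alone they held 22.5% in ESCs and 64.1% in myotubes. Counted in distinct sequences instead of reads, the shares were 11.9% in ESCs and 11.7% in myotubes. All intervals on shares are exact Clopper-Pearson ones, and they cover counting error only, since reads were not counted as molecules.

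An unannotated cluster had a median of 12 reads in ESCs (quartiles 7 and 35), against 8 for annotated nuclear-genome clusters (6 and 13). In myotubes the medians were 18 reads (8 and 57) for unannotated and 9 (6 and 15) for annotated clusters. Median lengths of unannotated and annotated clusters were 22 and 22 nt in ESCs and 24 and 23 nt in myotubes. Reads per distinct sequence had medians of 3.00 for unannotated and 2.20 for annotated ESC clusters, and of 3.27 and 2.50 for those of myotubes. For intronic clusters alone these medians were 3.0 in ESCs and 3.5 in myotubes. Unannotated sequences were less rich in A and T, with medians of 58.2% against 65.0% in annotated ESC clusters and 56.5% against 66.7% in annotated myotube clusters. Intronic clusters had 65.1% in ESCs and, close to the unannotated ones, 55.6% in myotubes.

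The reads were concentrated in few places. The 3 clusters with the most reads held 41.1% of all unannotated reads in ESCs and 48.5% in myotubes, and the first 10 held 65.4% and 77.9%. The chromosome 13 cluster at 107122051 led both tables, with 5752 ESC reads and, over a longer span from 107122025 to 107122084, 10064 myotube reads. It lies within the long noncoding RNA loci Gm31452 and Gm41051. Next in both tables was the chromosome 1 cluster, antisense to Cntnap5b, with 5697 reads in ESCs and 7529 in myotubes. Both were converted almost throughout: 98.7% and 99.4% of converted plus unconverted reads carried a conversion in ESCs, and 99.5% and 99.6% in myotubes. The chromosome 3 cluster at 16111087 was of the same kind, with 1848 ESC reads converted at 99.1% and 2913 myotube reads, from 16111080, at 98.1%.

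**Figure D1:**
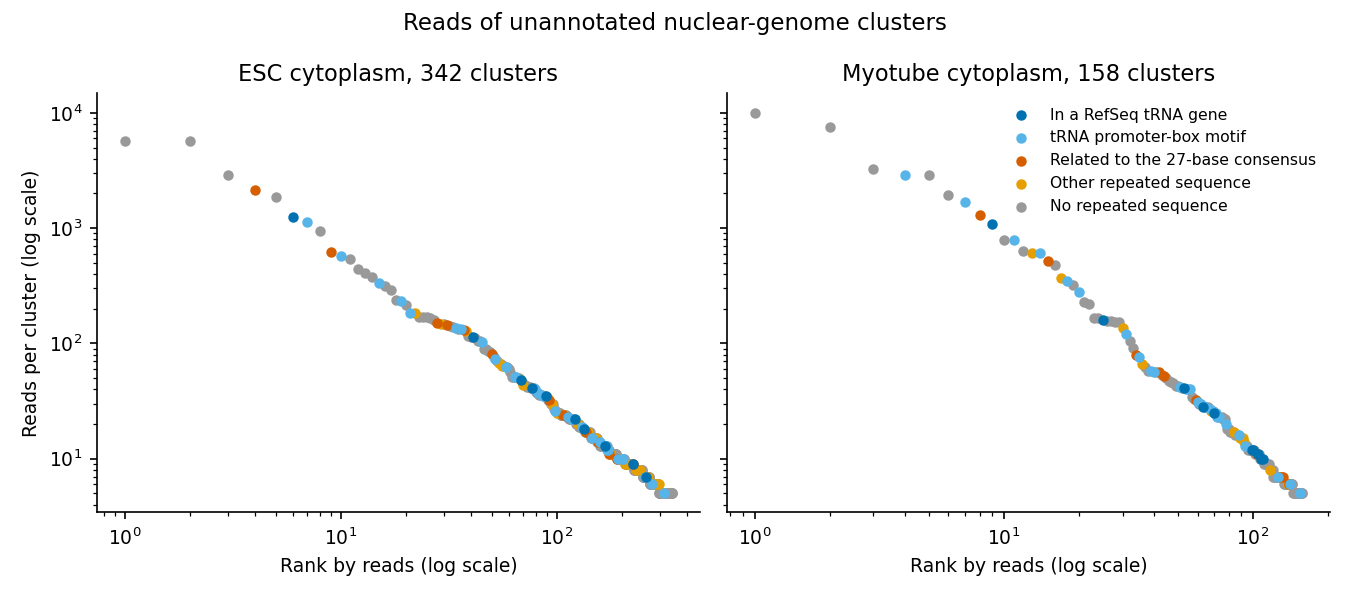
Reads per unannotated cluster (y axis, log scale) against its rank by reads (x axis, log scale) in the ESC cytoplasm (left) and the myotube cytoplasm (right), with 1 point per cluster coloured by sequence class. Both curves fall steeply, from 5752 reads in ESCs and 10064 in myotubes at rank 1, and clusters with tRNA-like or other repeated sequence occur along the whole curve.

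Other leading clusters lay at places that had a cluster in only 1 table. The third ESC cluster, on chromosome 13 at 23539700 and in no RefSeq gene span, had 2897 reads of 270 distinct sequences, a conversion of 60.4%, and no overlapping cluster in the myotube table. It held a match to the miR-27 seed, which alone does not make it a microRNA target. The RNA of origin of this cluster was not tested. The third myotube cluster, on chromosome 18 at 5146883, had 3235 reads converted at 99.5% and the fourth, the A box cluster on chromosome 19, had 2919 reads converted at 97.6%, and neither overlapped an ESC cluster. Some of these rested on few sequences. The myotube cluster on chromosome 13 at 102881999, antisense to Mast4, had 1924 reads of only 7 distinct sequences, or 275 reads per sequence, against 10.7 for the ESC cluster at 23539700. Another myotube cluster, on chromosome 7 at 129962962 in the long noncoding RNA locus Gm4265, had 791 reads of 5 sequences.

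Conversion was higher in unannotated than in annotated clusters of both libraries. In PAR-CLIP, bound RNA usually yields a mixture of converted and unconverted reads, but whether the level tells bound from unbound RNA was not tested. The median share of converted reads was 100% over unannotated ESC clusters (interval 95.1 to 100), against 80.0% over annotated nuclear-genome clusters (77.8 to 80.0). In myotubes it was 97.9% (94.7 to 100) against 87.5% (83.3 to 90.9). Among clusters with at least 10 reads the medians were 92.3% (83.3 to 98.1) against 64.4% (62.5 to 66.7) in ESCs and 94.3% (90.0 to 97.5) against 70.0% (66.7 to 75) in myotubes. A conversion of 95% or more was found in 190 unannotated ESC clusters (55.6%) and 91 myotube clusters (57.6%), and in 28.2% and 44.6% of annotated clusters. Of intronic clusters, 66.7% were at or above that level in ESCs and also 66.7% in myotubes. Summed over clusters, 79.0% of reads were converted in unannotated ESC clusters and 91.5% in unannotated myotube clusters, against 44.9% and 58.5% in annotated ones. The annotated sum in ESCs was weighted by 1 cluster with 43654 of its 120609 reads. For intronic clusters alone the summed share was 86.3% in ESCs, above the unannotated one, and 70.0% in myotubes. For 3′UTR clusters it was 68.8% and 82.1%. The calls rested on few positions. Exactly 2 conversion positions, the fewest found in either table, occurred in 68.7% of unannotated ESC clusters and 72.2% of unannotated myotube clusters, against 45.2% and 52.1% of annotated clusters. Intronic clusters alone had higher shares than the unannotated ones, 77.2% (68.4 to 84.5) in ESCs and 84.6% (69.5 to 94.1) in myotubes.

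**Figure D2:**
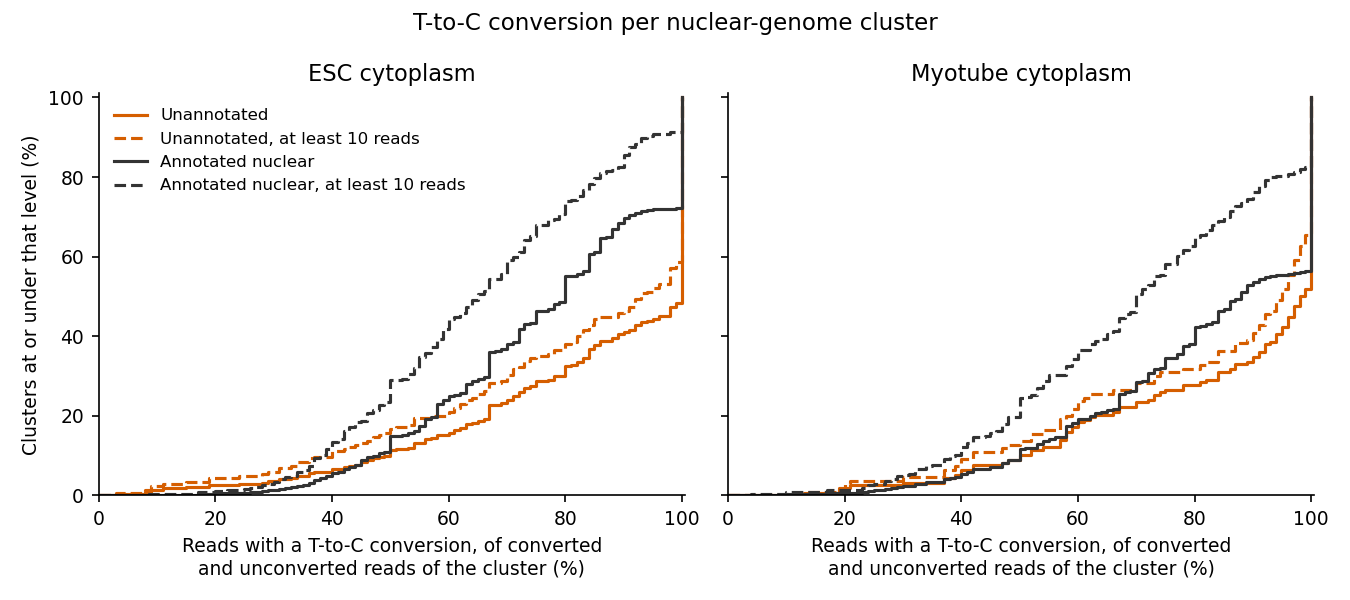
Share of nuclear-genome clusters (y axis, percent) at or under each level of T-to-C conversion (x axis, percent of converted plus unconverted reads) in the ESC cytoplasm (left) and the myotube cytoplasm (right), for unannotated clusters (orange) and annotated clusters (black), all (solid) and with at least 10 reads (dashed). The unannotated curves lie to the right of the annotated ones over most of the range, and their medians are 100% and 97.9% against 80.0% and 87.5%.

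The ends of cluster sequences also differed. The cluster sequence ended in G in 43.6% of unannotated ESC clusters (38.2 to 49.0) and in 33.5% of unannotated myotube clusters (26.2 to 41.5). Annotated clusters ended in G in 77.9% and 78.4% of cases. Intronic clusters alone did so in 56.1% (46.5 to 65.4) in ESCs and 56.4% (39.6 to 72.2) in myotubes. Both of these intervals overlap those of the unannotated clusters. The deposited share of reads ending in G had medians of 3.48% for unannotated and 6.46% for annotated ESC clusters, and of 12.3% and 2.02% for those of myotubes, where the order was the opposite. Among clusters with at least 10 reads the medians were higher for unannotated clusters of both tables. They were 8.0% against 0% in ESCs and 16.2% against 6.06% in myotubes. The 95% intervals of the unannotated and annotated medians overlap in both tables, for all clusters and for those with at least 10 reads. These medians therefore show no difference in the share of reads ending in G beyond their spread.

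Clusters were also sorted by their place in genes. RefSeq gene spans of the same build held 67 unannotated ESC clusters on the gene's strand and 67 on the opposite strand, 39 lay in spans whose strand was not at hand, and 169 in none. The counts in myotubes were 18, 32, 29 and 79. The ESC clusters on a gene's own strand had a median of 8 reads, ended in G in 73.1% of cases (60.9 to 83.2), had 65.0% A and T and were converted at a median of 87.5%. Those outside gene spans had a median of 17 reads, ended in G in 33.1% (26.1 to 40.8), had 56.5% A and T and a median conversion of 100%. Clusters antisense to a gene had a median of 19 reads, with 29.9% ending in G, 56% A and T and a median conversion of 100%. In myotubes, 55.6% of the clusters on a gene's strand ended in G (30.8 to 78.5), against 15.6% (5.28 to 32.8) of the antisense ones and 32.9% (22.7 to 44.4) of those outside. The medians of conversion there were close together, at 99.7% on the gene's strand, 99.8% antisense and 98.2% outside.

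Sequence classes were assigned in a fixed order: a place in a RefSeq tRNA gene, then an A or B box, then the GGCTAAG family, then any other run of 15 bases shared with a cluster elsewhere in the same table. In ESCs these classes held 10, 31, 14 and 27 clusters, and 260 (76.0%) had none of these features. In myotubes they held 10, 26, 10 and 12, and 100 (63.3%) had none. The clusters without such a feature had most of the unannotated reads, 73.3% in ESCs and 71.8% in myotubes. Before that ordering, 67 ESC clusters (19.6%, interval 15.5 to 24.2) and 48 myotube clusters (30.4%, 23.3 to 38.2) shared 15 bases with another place. Their partners were mostly other unannotated clusters, for 57 ESC and 45 myotube clusters, and introns, for 40 and 34.

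**Figure D3:**
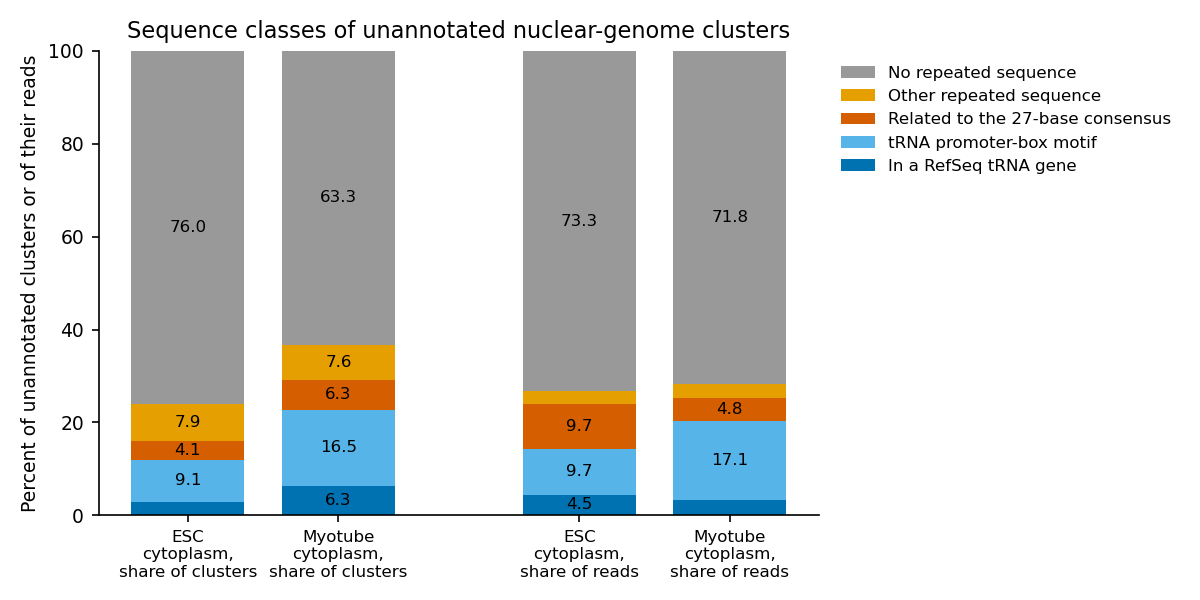
Stacked shares of the sequence classes among unannotated clusters (left pair of bars) and among their reads (right pair), in percent, with the ESC cytoplasm left of the myotube cytoplasm in each pair. The tRNA promoter-box class rises from the bottom as the second layer and holds 9.7% of unannotated reads in ESCs and 17.1% in myotubes, while clusters without a repeated sequence hold 73.3% and 71.8%.

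The largest repeated family was tRNA-like. The A box searched for was TGGC or TAGC, any 2 bases, AG, any 2 bases and GG, and the B box core was GTTCNANNC. One of them on the cluster's strand was found in 34 unannotated ESC clusters (9.94%, interval 6.98 to 13.6) and 30 unannotated myotube clusters (19.0%, 13.2 to 26.0). Among annotated nuclear-genome clusters it was found in 10 of 2218 (0.451%) and 9 of 610 (1.48%). Of intronic clusters alone, 4 of 114 held it in ESCs (3.51%, 0.964 to 8.74) and 4 of 39 in myotubes (10.3%, 2.87 to 24.2), and both intervals overlap those of the unannotated clusters. The shorter core AGCTCAG was found in 9.65% of unannotated and 4.39% of intronic ESC clusters, and in 18.4% and 17.9% of those of myotubes. The motif on the opposite strand of the cluster occurred in 1 unannotated cluster of each table. A boxes made up nearly all of it, in 29 ESC and 26 myotube clusters, and B boxes the rest, in 5 and 4, and no cluster held both. For comparison, 3.32% of all 32851 RefSeq promoter windows, which span 300 bases each, held such an A box on either strand and 9.32% a B box core.

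The largest group linked by shared runs of 15 bases, led by the A box cluster on chromosome 19, had 63 unannotated clusters at 51 places on 18 chromosomes. This group is not the same set as the clusters with a box motif. It had 33 ESC clusters with 2751 reads and 30 myotube clusters with 7870 reads, and 12 of its places occurred in both tables. Around the shared core the letters varied little. The 7 letters AGCTCAG were followed by TTGG in 24 ESC and 23 myotube clusters, by CTGG in 4 and 1, and by the shorter TGG in 5 and 4. TCGG followed them in 0 clusters of either table. Of the promoter windows, 10 held the core with TTGG, 3 with TCGG, 17 with CTGG and 54 with TGG, on either strand. The median conversion in the linked group was 93.3% in ESCs and 89.4% in myotubes. Annotated clusters with a box motif lay mostly in introns or noncoding transcripts. The one with the most reads was the Y RNA gene Rny1, whose product is also a polymerase III transcript, with 5048 ESC and 2261 myotube reads.

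Individual A box clusters were read in both libraries at different levels. The chromosome 11 cluster at 40585025 had 1124 reads in ESCs and 1701 in myotubes, converted at 97.2% and 91.9%. The chromosome 3 cluster at 126635862 had 336 ESC reads converted at 77.7% and 613 myotube reads at 94.1%. The other chromosome 3 cluster, at 128712958, had 133 ESC reads and 789 myotube reads. It was also one of those that shared 15 bases with a listed microRNA. No unannotated cluster of either table held 18 bases of a mature microRNA of the RefSeq table. A run of 15 bases matched in 2 ESC and 2 myotube clusters, all to mmu-miR-5106, whose gene is on chromosome 4 (44221197 to 44221219, minus strand). Its mature sequence, with the seed in capitals, holds the same tRNA-like core.
mmu-miR-5106: aGGUCUGUagcucaguuggcaga

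Few unannotated clusters lay in annotated tRNA genes. RefSeq has 430 tRNA genes, and 10 unannotated ESC clusters with 1565 reads and 10 myotube clusters with 1404 reads lay in one. The methionine tRNA gene n-TMcat16 on chromosome 15 took most of these reads, 1259 in ESCs and 1094 in myotubes, converted at 62.9% and 61.4%. The RefSeq table gives no strand for tRNA genes, so positions in them and their 3′ ends were taken on the cluster's strand. The n-TMcat16 cluster had the same start and end in both tables, began at base 58 of the 73-base gene, ran 10 bases past the annotated 3′ end and closed with TTTT. Of the 10 clusters in each table, 8 in ESCs and 9 in myotubes reached past the 3′ end of the gene, and 4 in each of the tables did so and ended in at least 4 T. The longest extension in ESCs was 28 bases, at the histidine tRNA gene n-THgtg1 with 41 reads, and in myotubes 26 bases, at the cysteine tRNA gene n-TCgca54 with 41 reads. Exceptions were the ESC cluster at n-TQctg1 and the myotube cluster at n-TKttt22, which began at base 1 of the gene, and the ESC cluster at n-TAcgc4, which lay inside it. n-TQctg1 had the lowest conversion, 10.4% of 48 reads. Only n-TMcat16 and the glutamine tRNA gene n-TQttg3, with 113 ESC and 161 myotube reads, had clusters in both tables.

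**Figure D4:**
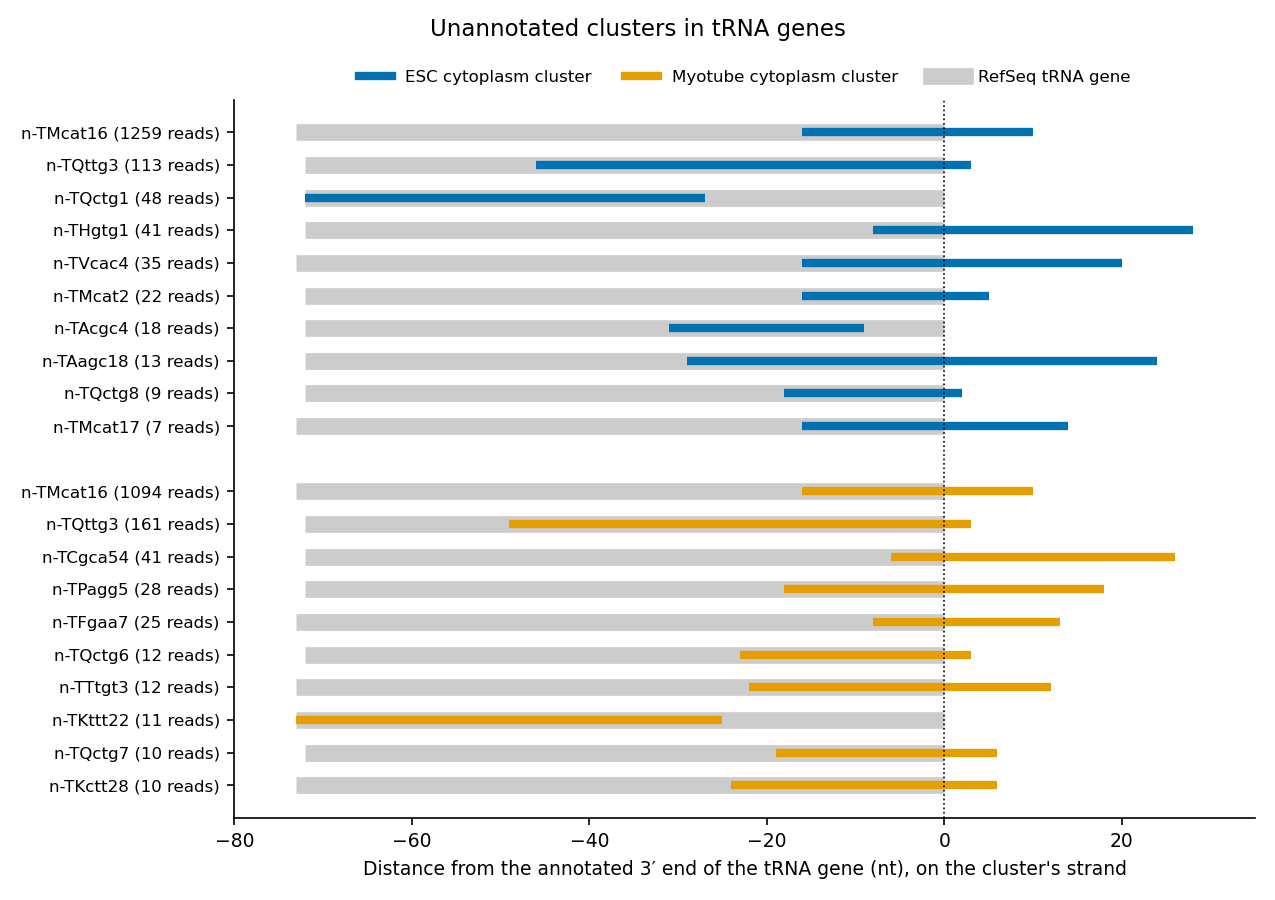
Position of the unannotated clusters in RefSeq tRNA genes, aligned at the annotated 3′ end of the gene (x axis, nt, taken on the cluster's strand since the RefSeq table gives none), with ESC clusters (blue) above myotube clusters (orange) and genes in grey, each row labelled with its read count. Most clusters cross the 3′ end, 8 of 10 in ESCs and 9 of 10 in myotubes.

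A CCA end was found in 18 unannotated ESC clusters (5.26%, interval 3.15 to 8.19) with 591 reads and in 4 myotube clusters (2.53%, 0.694 to 6.35) with 83 reads. Of annotated nuclear-genome clusters, 1.26% in ESCs and 1.31% in myotubes ended so, and of intronic clusters alone 4 of 114 (3.51%) in ESCs and 3 of 39 (7.69%) in myotubes. All 18 ESC and all 4 myotube clusters of this kind were converted at 95% or more, against 9 of 28 annotated ESC clusters and 7 of 8 annotated myotube clusters ending in CCA. The chromosome 4 cluster at 133900529 had 215 reads in ESCs and 41 in myotubes. The chromosome 7 cluster at 130827537 had 168 ESC reads and no overlapping myotube cluster.

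Conversion was low in the GGCTAAG family. It had 14 ESC clusters with 3401 reads and 10 myotube clusters with 2080 reads, besides an intronic cluster in Scp2 in the ESC table and one in Nell1 in the myotube table. Its median conversion was 39.3% in ESCs (range 7.74 to 80.0) and 49.5% in myotubes (range 12.3 to 100), and 15.0% and 17.9% of its reads were converted when summed. Each copy differed from the consensus at 0 to 3 bases, counted from 1 at its 5′ end with the consensus base first, and only the chromosome 6 cluster at 125217309 in ESCs had no difference. The 2 copies with the most reads differed by a single T-to-C substitution. The chromosome 16 copy (T14C) had 2140 ESC reads converted at 7.74% and 1313 myotube reads at 12.3%. The chromosome 6 copy at 102697080 (T11C) had 615 ESC reads converted at 18.4% and 516 myotube reads at 20.1%. The chromosome 4 copy at 94226046 (T2A) had 132 reads converted at 39.4% in ESCs and 32 reads at 59.4% in myotubes. The chromosome 19 copy at 29004576 (C4T) had 81 ESC reads at 8.64% and 56 myotube reads at 19.6%. What set the conversion of each copy was not tested.

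Smaller sequence groups were also seen. A group of 5 clusters on 3 chromosomes, led by the chromosome 6 place at 34522530 with 127 ESC and 367 myotube reads, carried a tRNA-like sequence that the box motifs did not match. Another group of 5, on 2 chromosomes, was led by the n-TQttg3 cluster. On the X chromosome, the cluster at 76128997 had 184 ESC reads, and its myotube partner, from 76128993 to 76129045, had 165. They were converted at 84.5% and 97.5%.

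Few unannotated clusters lay close together. Another unannotated cluster on the same strand within 10 kb was found for 30 ESC clusters (8.77%, interval 6.0 to 12.3) and 10 myotube clusters (6.33%, 3.08 to 11.3). By chromosome, ESC clusters were most frequent on chromosomes 7 (31), 3 (27) and 1 (25), and myotube clusters on chromosomes 3 (16) and 13 (14). Chromosome 13, which holds a large tRNA gene cluster, had 6.14% of unannotated and 3.88% of annotated ESC clusters, and 8.86% and 3.77% of those of myotubes. The intervals of these unannotated and annotated shares overlap in both tables. Chromosome 13 also held 6 of the 10 ESC and 4 of the 10 myotube clusters in tRNA genes. Chromosome 11 had 4.97% of unannotated and 9.24% of annotated ESC clusters, but 8.23% and 8.03% of those of myotubes.

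The ESC runs with the most clusters held 5 each. One spanned 1461 nt of chromosome 17, from 39843355 to 39844815 on the plus strand, with 113 reads in all. It lies beside annotated clusters of the long noncoding RNA gene Gm26917. About 2 kb further on, at 39846884, the myotube table had an unannotated cluster of 50 reads, converted at 18.4%, in the RefSeq 18S ribosomal pseudogene Rn18s-rs5. The other, with 41 reads, lay over 8748 nt of the imprinted long noncoding RNA Snhg14 on chromosome 7, on the gene's strand. A run of 4 clusters with 37 reads followed the annotated 3′UTR cluster of Sp1, which encodes a zinc-finger transcription factor, over 2400 nt of chromosome 15. In myotubes, runs of 3 clusters lay in 1110002E22Rik on chromosome 3, with 27 reads, and on chromosome 7 from 44478379 to 44480695, outside RefSeq spans, with 17 reads. None of the clusters in these runs overlapped one of the other table.

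Sp1 was one of several genes with unannotated clusters next to its 3′UTR. Within 10 kb of an annotated same-strand cluster of a named gene lay 24 ESC and 5 myotube clusters. For 15 of the ESC clusters, near 11 genes, the nearest was a 3′UTR cluster, and 12 of these lay inside the RefSeq span of the same gene. They had 5 to 15 reads and lay 678 to 4909 nt from the annotated cluster. Examples were Enah, an actin regulator, with 2 clusters of 11 and 6 reads, the membrane metalloendopeptidase gene Mme with 8 reads, Klf9, a Krüppel-like transcription factor, with 6 reads, and Slc25a36, a mitochondrial carrier gene, with 8 reads. In myotubes the 3 such clusters lay at Mtdh (18 reads), Csnk1a1 (13 reads), which encodes casein kinase 1 alpha, and Sh3glb1 (9 reads).

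Matches to microRNA seeds were uncommon. A 7-base site of any of 14 families of microRNAs of ESCs, muscle or other cells was found in 12 unannotated ESC clusters (3.51%, interval 1.83 to 6.05) and 8 unannotated myotube clusters (5.06%, 2.21 to 9.73). In 3′UTR clusters the counts were 99 of 1325 (7.47%) in ESCs and 32 of 363 (8.82%) in myotubes. Most of the clusters with a site had few reads, and 7 of the 12 ESC clusters with one had 8 reads or fewer. The 12 ESC clusters included 4 of 342 with a site of the miR-290 family, the main microRNA family of mouse ESCs. They lay in the spans of Zfp507, Rpusd2, Klf3 and Zfp800 and had 6 to 8 reads. Sites of this family were not particular to ESCs, since 2 of 158 unannotated myotube clusters also held one. These had 136 reads, on chromosome 7 at 34743150, and 7 reads, on chromosome 9 at 118337031. A place on chromosome 15 at 49477865, outside gene spans, held the miR-200 site CAGTATT in both tables. It had 312 reads in ESCs, converted at 99.0%, and 53 in myotubes, converted at 100%. Its sequence is shown next with the site in capitals.
chr15:49477865-49477887 (-): taagctaacCAGTATTaattgtc

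Many of the unannotated places recurred in the other table. On the same strand, 59 unannotated clusters of each table overlapped, which was 17.3% of those in ESCs (interval 13.4 to 21.7) and 37.3% of those in myotubes (29.8 to 45.4). For annotated nuclear-genome clusters the shares were 7.35% (6.30 to 8.51) in ESCs and 26.7% (23.2 to 30.4) in myotubes. Intronic clusters alone overlapped in 12.3% of cases (6.88 to 19.7) in ESCs and 35.9% (21.2 to 52.8) in myotubes. Both intronic intervals overlap those of the unannotated clusters. Among clusters with at least 10 reads, 26.8% of unannotated (20.9 to 33.4) and 13.4% of annotated ESC clusters (11.3 to 15.8) overlapped a cluster of the other table with any number of reads. In myotubes these shares were 45.5% (35.9 to 55.2) and 39.4% (33.6 to 45.5), and their intervals overlap. That both members of a pair were unannotated follows from the shared annotation of the place. The 59 pairs held 66.7% of unannotated reads in ESCs and 69% in myotubes, with the same start in 37 pairs, the same end in 39 and both in 28. Overlap was frequent in the GGCTAAG family, with 8 of 14 ESC and 8 of 10 myotube clusters. It was also frequent with A or B boxes outside tRNA genes, with 12 of 31 and 12 of 26. Of clusters without a repeated sequence or other feature, 30 of 260 in ESCs (11.5%) and 33 of 100 in myotubes (33.0%) overlapped. The median was 56 reads in ESCs and 34 in myotubes for clusters with an overlap, and 10 and 12 for those without one.

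Across the 59 pairs, read counts went together between the tables, with a Pearson r of 0.89 on log10 reads and a Spearman rho of 0.83. The conversion shares had a rho of 0.66 and a median absolute difference of 4.92 percentage points. These are descriptions over pairs of 2 libraries and over shared sequence. The log2 ratio of read shares, ESC over myotube, had a median of -0.38 and ran from -3.36 to 1.97. Over all 310 overlapping pairs of the tables the median was -0.48. The share was at least 2-fold higher in ESCs in 8 pairs (13.6%) and at least 2-fold lower in 21 (35.6%). Of all overlapping pairs, 13.9% were that much higher and 35.2% that much lower, so the unannotated pairs were close to this background. The direction depends on the total. With the reads of the 59 pairs as the total, 24 pairs were at least 2-fold higher in ESCs and 5 lower, and the median was 0.64.

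**Figure D5:**
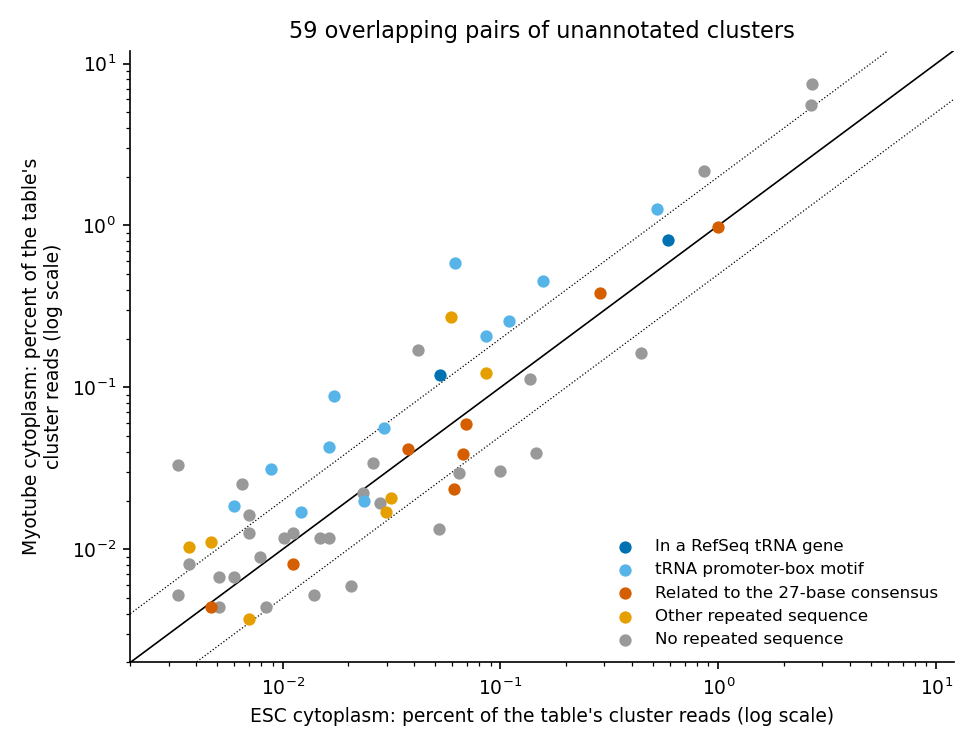
Share of the table's cluster reads (percent, log scales) of the 59 overlapping pairs in the ESC cytoplasm (x axis) and the myotube cytoplasm (y axis), with 1 point per pair coloured by sequence class, a solid line at equal shares and dotted lines at 2-fold differences. Pairs with a tRNA promoter box outside tRNA genes lie mostly above the upper dotted line, 9 of 12, and those of the GGCTAAG family near the solid line. With the reads of the 59 pairs as the total, 2 of the 12 would be at least 2-fold lower in ESCs and 6 of the 8 GGCTAAG pairs at least 2-fold higher.

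The classes of pairs had different medians. The 12 pairs with a tRNA promoter box outside tRNA genes had a median log2 ratio of -1.34, and 9 of them were at least 2-fold lower in ESCs. With pair reads as the total that median was -0.32, with 2 lower and 1 higher. For the 8 pairs of the GGCTAAG family the median was 0.15, with 0 that much lower and 1 higher, and with pair reads as the total it was 1.17, with 6 higher. It was -0.40 with nuclear-genome reads as the total, so its sign depends on the total. The 30 pairs without a feature had a median of -0.15, with 8 lower and 7 higher, and of 0.87 with pair reads as the total, with 2 lower and 14 higher. A change of the read total shifts every ratio by the same amount, so it cannot change the order of the class medians. By distinct sequences the medians were -0.91 for the box pairs, 0.39 for the GGCTAAG family and -0.24 for the pairs without a feature. No test of these differences was made.

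The leading pairs showed both directions. The ratio with pair reads as the total is also given, and for n-TMcat16 it has the other sign. The chromosome 13 place at 107122051 took 2.68% of ESC and 7.45% of myotube cluster reads, a log2 ratio of -1.48 (interval -1.52 to -1.43), or -0.46 with pair reads as the total. The chromosome 1 place took 2.65% of ESC and 5.58% of myotube reads (log2 ratio -1.07, -1.12 to -1.02), or -0.05 with pair reads as the total. The chromosome 16 copy of the GGCTAAG family took 0.996% of reads in ESCs and 0.972% in myotubes (0.03, -0.07 to 0.13), and its ratio with pair reads as the total was 1.05. For n-TMcat16 the shares were 0.586% and 0.810% (-0.47, -0.59 to -0.35), and the ratio with pair reads was 0.55. Among the 10 pairs with the most ESC reads, 2 had a higher share in ESCs with an interval above 0. The first, on chromosome 11 at 109011806, took 0.441% of ESC and 0.164% of myotube reads (1.43, 1.22 to 1.65), or 2.45 with pair reads. The other was the miR-200 site place on chromosome 15, with 0.145% of ESC and 0.0393% of myotube reads (1.89, 1.46 to 2.34), or 2.91 with pair reads. The miR-200 site place rested on 8 distinct sequences in ESCs and 5 in myotubes. By distinct sequences the log2 ratio was only 0.07 there and 0.54 at the chromosome 11 place. The A box place on chromosome 3 at 128712958 had 0.0619% of ESC and 0.584% of myotube reads (-3.24, -3.52 to -2.97), or -2.22 with pair reads. By distinct sequences the ratio was -1.23 at this A box place, -0.54 at the chromosome 13 place and -0.65 at the chromosome 1 place. These intervals are exact conditional binomial ones and hold counting error only.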

How the data were processed

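Each deposited table lists 1 called cluster per line, with raw read counts, distinct-sequence counts and conversion counts as deposited by the authors, without normalization in the file headers. The authors also deposited the share of reads ending in G as a fraction, a ModeScore and a log10 conversion specificity, and neither the score nor the log10 value was used. Per the submitters' processing notes, bcl2fastq 2.17.1 was used and coordinates are on mm10. Which aligner and caller made the clusters, and whether libraries were pooled, is not given in the sources used here. Blank lines (4 in the ESC table, 1 in the myotube table) were dropped. Nuclear samples were not analysed here. Total cluster reads were 214955 in ESCs and 135023 in myotubes.

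Conversion was computed as converted over converted plus unconverted reads. Shares have exact Clopper-Pearson 95% intervals, medians exact order-statistic intervals. RefSeq genes, promoters and miRNAs are from GRCm38.p6, the build of mm10, and gene strand was known where a promoter or miRNA entry gave it. The GGCTAAG family is every cluster that aligned to the consensus over at least 20 bases with at most 3 mismatches. Named clusters were the 10 with the most reads per table, the 10 overlapping pairs with the most reads, the leading member of each sequence group, microRNA matches, runs of 3 or more within 10 kb, and neighbouring genes; other named ones were chosen after their values were seen. The members, lists and tests were chosen with earlier results of these data known. The seed sites of the miR-1 and miR-133 families were read from miR-206 and miR-133b. Functions were tested on simulated data. Tools were Python 3.11.15, pandas 2.3.3, numpy 2.4.6, scipy 1.17.1 and matplotlib 3.10.9.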

Additional observations from a re-analysis of the deposited data

How the results depend on the processing

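No paired analysis was possible because each group had 1 library and no result comes from a test between groups. Of 75 alternatives, 37 stayed within the interval of the reported value or within 1.5 times the count, 38 moved beyond it; the causes were not tested. The median ratio of the pairs turned to 0.64 with pair reads as the total, against -0.38, and the order of the read shares turned with distinct sequences. With clusters of at least 10 reads, unannotated clusters were 16.7% of ESC and 21.9% of myotube clusters, with 16.6% and 32.2% of reads, a median conversion of 92.3% and 94.3%, and in ESCs 15.1% with a box, 24.4% repeated, 4.39% near another and 22.9% overlapping a cluster that also had at least 10 reads. Of nuclear-genome clusters the myotube share was 20.6%. Read shares were 22.5% and 64.1% of nuclear-genome reads, 14.0% and 26.3% without the leading cluster, and 11.9% and 11.7% in distinct sequences. Summed conversion was 79.0% and 91.5%. Sequences ending in G were 43.6% and 33.5%. The longer B box alone was found in 0.877% and 0.633%. Repeats of 12 bases were found in 36.8% and 42.4%, and of 18 bases in 10.2% of ESC clusters. Near another within 1 kb were 5.26% of ESC clusters, and near any cluster 12.6%. Without repeated sequences, 12.4% of ESC clusters overlapped. Pairs at least 2-fold higher in ESCs numbered 2 by distinct sequences, 4 with nuclear-genome reads and 24 with pair reads as the total; lower pairs numbered 10 by distinct sequences and 5 with pair reads. With 15 bases, 2 ESC and 2 myotube clusters matched a microRNA. The 8mer site was found in 1.75% of ESC clusters. The pair-read total, the AGCTCAG core and the settings without repeats, without same-strand gene spans and without part of chromosome 13 were chosen after seeing the data. A median cluster of 12 or 18 reads limits conversion to coarse steps, and clusters below the caller's limit were not seen.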
